A study of Homo sapiens with 4 samples.

Results

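The genes described here are the 5 synaptotagmin-like genes, *SYTL1* to *SYTL5*, and the 2 RAB27 genes, *RAB27A* and *RAB27B*. They are 7 of the 63677 genes in the count files and were found by symbol and Ensembl identifier. The set was chosen from the results of the same comparison of cell lines, in which *SYTL2* stood out, so the differences of these 7 genes between the lines are given as a description and nothing rests on a test of them. The comparison was of FLO-1LM with FLO-1 parental cells, with 2 RNAseq libraries per line. FLO-1 is an established cell line from a human esophageal adenocarcinoma (EAC). FLO-1LM is a subline that was grown out of a liver metastasis after FLO-1 cells had been carried through several rounds of NSG mice, which lack T, B and natural killer cells, and it was kept in culture before RNA was taken. The cells of both lines were untreated and were collected at 80% confluency, 24 hours after the medium was changed. No source used here states that the replicate libraries were grown as separate cultures, so p-values measure only the spread between these libraries, which may be technical. One subline was compared with its parent, so the metastatic origin of FLO-1LM and its passage through mice and culture cannot be told apart.

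RAB27A and RAB27B are small GTPases that, when bound to GTP, sit on secretory vesicles, lysosome-related organelles and multivesicular endosomes and bring them to the plasma membrane. The synaptotagmin-like proteins are RAB27 effectors. Their amino-terminal domain binds GTP-loaded RAB27 and their tandem C2 domains at the carboxyl terminus bind membrane lipids, so that they tether a RAB27 vesicle to the plasma membrane before fusion. In epithelial and tumor cells the pathway is known for the release of granule contents, proteases and exosomes, and for the delivery of membrane proteins to the cell surface.

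*SYTL2* is the gene whose reads would matter most if they were shared with a relative. Among the other SYTL genes, the longest stretch identical to it lies in *SYTL4*. No genes outside the family were compared with *SYTL2*. Over the annotated main transcripts, the coding sequences of the SYTL genes were 58.2% to 64.3% identical where they aligned, and no pair had more than 17 identical bases in a row, in the coding sequence or in the whole transcript. The 17 bases that *SYTL2* shares with *SYTL4* are in capitals below, with 30 coding bases on each side. They encode part of the carboxyl-terminal end of the proteins. In *SYTL2* they are within chr11:85406317-85407235 and in *SYTL4* within chrX:99931107-99933397, both on the minus strand of GRCh37, and each stretch spans 1 intron.
SYTL2: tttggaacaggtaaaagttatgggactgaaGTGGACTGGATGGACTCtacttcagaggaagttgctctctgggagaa
SYTL4: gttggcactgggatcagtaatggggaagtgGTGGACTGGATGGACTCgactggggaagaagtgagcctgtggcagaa
The RAB27 genes are closer to each other, with 68.7% identity over 651 aligned coding bases and again at most 17 identical bases in a row. The first 120 coding bases of both are shown because they hold the start of the GTP-binding fold, where the pair is alike in protein, and still differ at 34 positions, in capitals. They lie in 1 exon each, at chr15:55527013-55527132 on the minus strand and at chr18:52544817-52544936 on the plus strand.
RAB27A: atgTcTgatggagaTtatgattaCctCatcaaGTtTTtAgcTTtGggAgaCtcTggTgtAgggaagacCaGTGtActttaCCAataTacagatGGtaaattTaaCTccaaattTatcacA
RAB27B: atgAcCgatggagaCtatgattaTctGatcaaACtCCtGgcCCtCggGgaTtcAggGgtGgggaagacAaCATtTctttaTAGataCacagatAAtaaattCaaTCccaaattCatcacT
The read length, and what was done with reads that matched more than 1 gene, are not given in the sources used here.

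Total counts on genes ran from 19060310 to 25920336 per library. Levels are given as CPM, the count relative to the library total after TMM scaling in edgeR, and a count of 3, taken as the floor, corresponded to 0.116 to 0.156 CPM. Replicate libraries were not duplicates of each other, since their counts differed beyond sampling noise, and each was counted as 1 sample. By chi-square per degree of freedom, the FLO-1LM libraries differed more from each other (9.16) than the parental ones did (4.37). Pairs across the lines were at 10.6 to 13.4. Of the simple epithelium markers, 8 of 9 were tested. At an edgeR adjusted p below 0.05, 5 (*CDH1*, *KRT8*, *KRT18*, *KRT19* and *CLDN4*) were lower in FLO-1LM, beside 1.83% of all genes tested. *ELF3* and *VIL1* were also lower in both FLO-1LM libraries, with log2 fold changes of -0.83 and -2.70. Neither was past the threshold (edgeR adjusted p 0.14 and 0.079). *KRT7* had values in the other direction, 6.37 and 6.06 CPM in FLO-1LM against 3.08 and 4.90, and was not called (log2 fold change 0.64, edgeR adjusted p 0.30). The level summed over the 9 markers was 498 to 515 CPM in FLO-1LM and 874 to 885 CPM in parental cells, and *EPCAM* had only 3 to 12 counts in any library. The 3 squamous markers had 0 to 4 counts. *PTPRC*, *ALB* and *DCN* had 0 counts in every library, *CD3E* had 0 to 2, and *COL1A1* had 186 to 284. The part of the epithelial difference in the results below was not tested, and in these bulk samples fewer cells of a type and less RNA per cell cannot be told apart.

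Of the 7 genes, 6 passed the filter on low counts and 1 of these, *SYTL2*, was past an adjusted p of 0.05 in edgeR's fit across all genes, in the direction of higher expression in FLO-1LM. No member was past it in the other direction. Across all 17143 genes tested, 0.402% were called higher and 1.83% lower. The other 5 members tested all had log2 fold changes below 0, and in 3 of them (*SYTL1*, *SYTL3* and *RAB27A*) both parental libraries were above both FLO-1LM libraries. Groups that do not overlap are common with 2 libraries against 2: FLO-1LM was wholly above parental in 20.9% of all genes tested and wholly below in 21.7%. With this number of libraries the smallest p of an exact permutation test for 1 gene is 0.333, and calls therefore depend on the dispersion that edgeR estimates across genes.

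**Figure D1:**
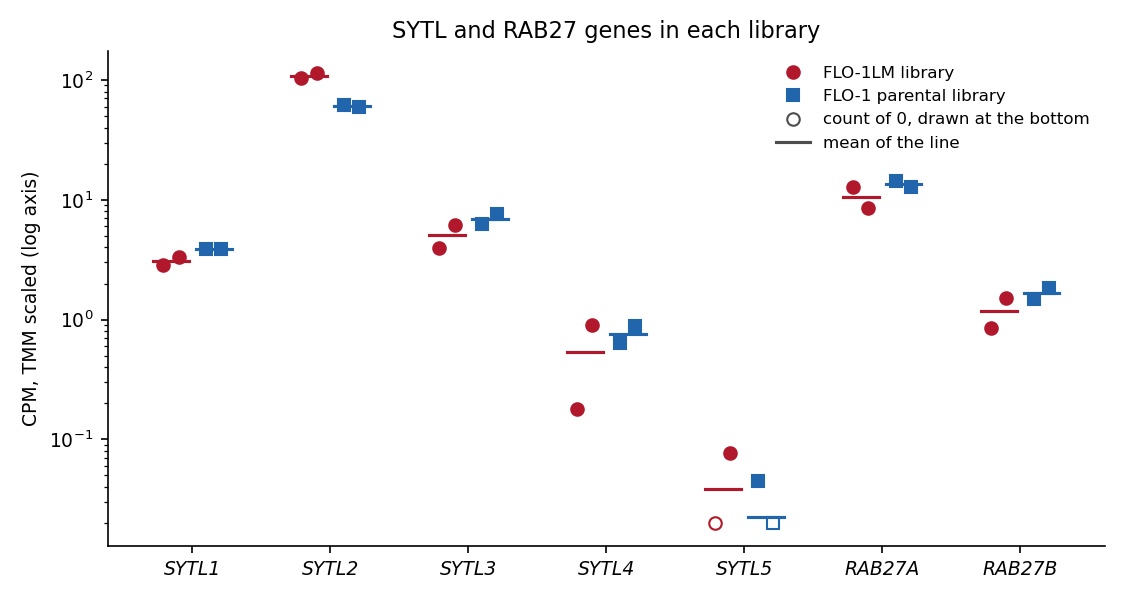
CPM of the 7 genes in each of the 4 libraries on a log axis, with circles for FLO-1LM, squares for FLO-1 parental cells, a line at the mean of each line and open symbols for counts of 0. *SYTL2* is the most abundant by CPM and both its FLO-1LM libraries, at 103 and 114 CPM, lie above the parental ones, while *SYTL5* is at the bottom with 0 to 2 counts.

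*SYTL2* (ENSG00000137501, chr11:85405267-85522202, minus strand, GRCh37) encodes SLP2, known in epithelial cells for carrying RAB27 vesicles to the apical membrane. It had 2305 and 2927 counts in the FLO-1LM libraries and 1362 and 1130 in the parental ones. This is 103 and 114 CPM in FLO-1LM and 61.8 and 58.9 CPM in parental cells. Both FLO-1LM libraries were high and both parental libraries low, with no overlap. The log2 fold change was 0.85 (SE 0.087), a fold of 1.80 with a 95% interval of 1.59 to 2.04. It was the gene with the second smallest p among the 69 genes called higher. This rank is description only, since the set was chosen with this result known. The log2 fold change was 0.78 to 0.91 over the 12 alternatives in scaling, filter, tool and libraries. The counts are sums over the gene. The annotation lists 11 complete coding transcripts of *SYTL2*, from 336 to 2239 codons, and 17 starts of coding transcripts, and the files do not show which of them changed.

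Among the other synaptotagmin-like genes, *SYTL3* and *SYTL1* were expressed at a few CPM in both lines. *SYTL3* (ENSG00000164674, chr6:159071046-159185908, plus strand), whose protein is known from lytic granules of T cells, had 3.99 and 6.14 CPM in FLO-1LM and 6.31 and 7.61 CPM in parental cells. The parental libraries were the higher ones, but the highest FLO-1LM and the lowest parental library were closer to each other than the FLO-1LM libraries were. Its log2 fold change was -0.45 (SE 0.25), with a 95% interval from -0.97 to 0.07. It was -0.18 without FLO-1LM replicate 1 and -0.80 without FLO-1LM replicate 2. *SYTL1* (ENSG00000142765, chr1:27668511-27680428, plus strand) encodes SLP1, an effector of granule release in leukocytes. It had 2.87 and 3.30 CPM in FLO-1LM and 3.86 and 3.91 CPM in parental cells, again with both parental libraries above. The log2 fold change was -0.33 (SE 0.29), with an interval from -0.94 to 0.28, which holds both no change and a fall as large on the log2 scale as the difference of *SYTL2*.

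*SYTL4* and *SYTL5* are both on the X chromosome and were near or under the limit of these libraries. *SYTL4* (ENSG00000102362, chrX:99926780-99987110, minus strand) encodes granuphilin, known for docking insulin granules and multivesicular endosomes. It had 4 and 23 counts in FLO-1LM and 14 and 17 in parental cells, so that the FLO-1LM libraries lay on both sides of the parental ones. The log2 fold change was -0.47 (SE 0.75), with an interval from -2.03 to 1.10, and it was 0.24 without FLO-1LM replicate 1 and -2.04 without FLO-1LM replicate 2. Its exons share 4006 bases with *SRPX2* on the opposite strand, which had 0 counts in 3 libraries and 4 in parental replicate 2. *SYTL5* (ENSG00000147041, chrX:37865806-37988072, plus strand) had 0 and 2 counts in FLO-1LM and 1 and 0 in parental cells. This is under the floor of 3 counts in every library. *SYTL5* did not pass the filter on low counts, so it was not tested and no fold is given.

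Both RAB27 genes were expressed in both lines, *RAB27A* at the higher level. *RAB27A* (ENSG00000069974, chr15:55495164-55611311, minus strand), the isoform known for melanosome transport, lytic granules and exosome release, had 282 and 219 counts in FLO-1LM and 316 and 245 in parental cells. This is 12.7 and 8.51 CPM against 14.3 and 12.8 CPM. The first FLO-1LM library was close to the parental ones and the second was low. The log2 fold change was -0.36 (SE 0.19), with an interval from -0.77 to 0.04. It was -0.67 without FLO-1LM replicate 1 and -0.10 without FLO-1LM replicate 2. Its exons share 183 bases with *PIGBOS1* on the same strand, which had 172, 156, 214 and 177 counts in the same order of libraries, and 154 bases with *PIGB* on the opposite strand, which had 348, 472, 265 and 274. Neither neighbour was called, with edgeR adjusted p of 0.35 and 0.34. *RAB27B* (ENSG00000041353, chr18:52385091-52562747, plus strand), the isoform of secretory epithelia, platelets and exosome-releasing cells, had 19 and 39 counts in FLO-1LM and 33 and 35 in parental cells. The groups overlapped in counts and in CPM, and the log2 fold change was -0.48 (SE 0.50), with an interval from -1.52 to 0.57. It was -0.13 without FLO-1LM replicate 1 and -0.95 without FLO-1LM replicate 2. Other annotated genes that share exon bases with a member (*MIR3918* with *SYTL3*, RP11-524D16__A.3 with *SYTL4* and ENSG00000267112 with *RAB27B*, all on the opposite strand) had 0 counts in every library.

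**Figure D2:**
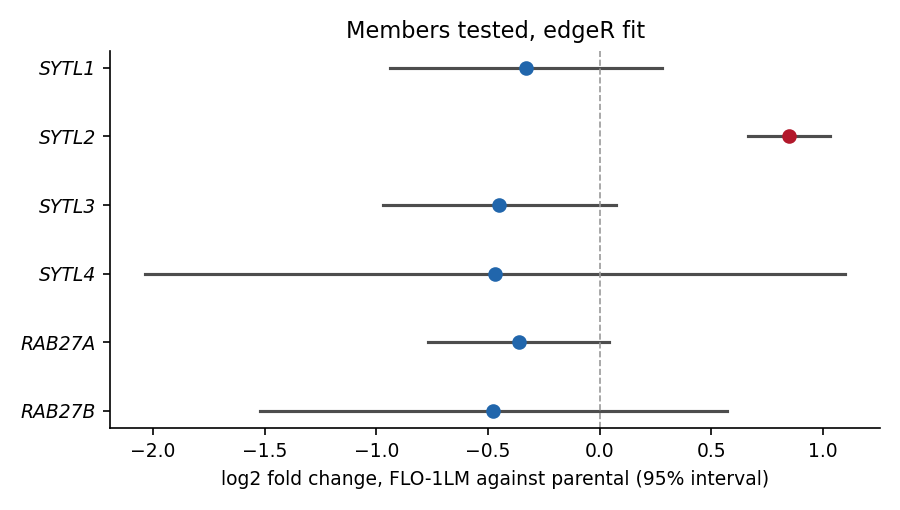
Log2 fold change, FLO-1LM against parental, of the 6 members tested, with 95% intervals from the edgeR fit and a dashed line at 0. The interval of *SYTL2*, 0.66 to 1.03, is above 0, and the intervals of the other 5 genes include 0.

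To compare levels between genes, CPM was divided by the length of each gene's annotated exons in kb. The order was the same in both lines: *SYTL2*, *SYTL3*, *RAB27A*, *SYTL1*, *RAB27B*, *SYTL4* and *SYTL5*. *SYTL2* was at 9.64 ± 0.64 CPM per kb (SD, n = 2) in FLO-1LM and 5.36 ± 0.18 in parental cells. *SYTL3* was at 1.75 ± 0.52 and 2.40 ± 0.32, and *RAB27A* at 0.933 ± 0.26 and 1.19 ± 0.10 CPM per kb. *SYTL1* was at 0.553 ± 0.054 and 0.696 ± 0.0070. The remaining levels were 0.165 and 0.232 CPM per kb for *RAB27B*, 0.052 and 0.074 for *SYTL4* and 0.0081 and 0.0047 for *SYTL5*. No neighbours in this order overlapped between libraries in either line. With the longest transcript as the length, *RAB27A* moved above *SYTL3* in both lines, with overlap in FLO-1LM, and *RAB27B* and *SYTL4* overlapped in FLO-1LM as well. The place of *SYTL2* at the top did not depend on the length.

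The make-up of the family within a library does not depend on how libraries are scaled. *SYTL2* carried 82.8% and 78.2% of the summed SYTL level per kb in FLO-1LM and 65.1% and 60.5% in parental cells, a mean of 80.5% ± 3.2 against 62.8% ± 3.3 (SD, n = 2). *SYTL3* carried 12.4% and 16.4% against 25.8% and 30.4%. *SYTL1* carried 4.63% and 4.58% against 8.19% and 8.10%, the smallest spread between libraries of a line. With the longest transcript as the length its share was 7.13% and 7.12% against 12.8% in both parental libraries. The small spread is therefore not a measure of how exact the share is. All these shares are tied to one another, since a higher share of *SYTL2* lowers the rest.

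**Figure D3:**
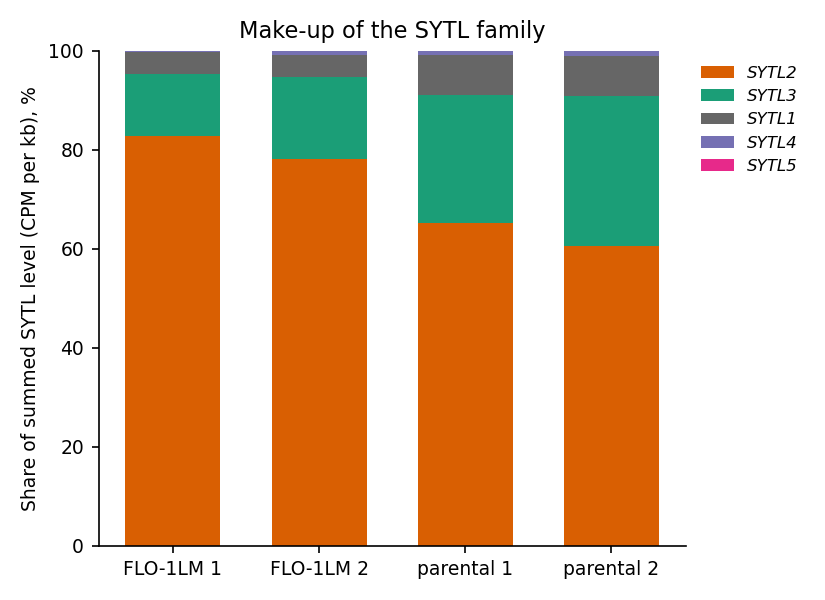
Share of the summed SYTL level, in CPM per kb of exon, carried by each SYTL gene in each library, as stacked bars that add up to 100%. The *SYTL2* bar reaches 82.8% and 78.2% in the FLO-1LM libraries and 65.1% and 60.5% in the parental libraries.

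The summed SYTL level was 11.1 and 12.9 CPM per kb in FLO-1LM and 8.43 and 8.65 in parental cells. Without *SYTL2* it was 1.91 and 2.81 against 2.94 and 3.42, with the parental libraries above. The summed RAB27 level was 1.23 and 0.962 CPM per kb in FLO-1LM against 1.47 and 1.38. The ratio of the effector *SYTL2* to its partner *RAB27A* was thus 8.24 and 13.5 in FLO-1LM and 4.34 and 4.65 in parental cells. With the longest transcript as the length it was 4.61 and 7.54 against 2.43 and 2.60. The size of such ratios between genes depends on the length used. The ratio of *SYTL2* to *SYTL1* was 17.9 and 17.1 against 7.95 and 7.47, and that of *SYTL2* to *SYTL3* was 6.66 and 4.77 against 2.52 and 1.99. By contrast, the ratio of *RAB27A* to *RAB27B*, 9.36 and 3.54 against 6.04 and 4.41, and that of *SYTL3* to *SYTL1*, 2.68 and 3.58 against 3.15 and 3.75, overlapped between the lines.

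The genes that work with RAB27 and its effectors were taken as 8 lists with 97 genes, of which 76 were tested. None was called higher and 1, *SYT12*, was called lower in edgeR's fit. With 0.402% of all genes called higher and 1.83% lower, these counts are near the background. Without adjustment, 4 genes were higher and 5 lower at p below 0.05 in edgeR's fit. Unadjusted p of this size were common across all genes. That of *STX11*, 0.032 in edgeR, ranked 1626 among the 17143 genes tested. The median log2 fold change over the lists was 0.0094, beside 0.0016 over all genes tested.

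Of the other RAB27 effectors in the list of that name, 1 of 4 was tested. *UNC13D*, the priming factor of lytic granules, was at 5.57 and 6.33 CPM in FLO-1LM and 6.49 and 5.89 in parental cells, with a log2 fold change of -0.06 (SE 0.22). *MLPH*, the melanophilin that links RAB27A to myosin Va, had 2 to 9 counts, *EXPH5*, an effector that acts in exosome release, had 0 to 10, and *MYRIP* had 0 in every library. The MYO5 and MYO7 motors gave 3 tested genes of 4, none called, with log2 fold changes of 0.02 for *MYO5A* (SE 0.090) and 0.00 for *MYO5C* (SE 0.21).

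The genes that load RAB27 with GTP, switch it off, attach its lipid anchor or extract it from membranes gave 9 tested of 10 and none called. *GDI2*, whose product keeps RAB proteins soluble in the GDP state and which was the most abundant of the list per kb, had a log2 fold change of 0.12 (SE 0.071). The RAB escort genes, which present RAB proteins for prenylation, had the smallest p values of the list and were picked out after their values were seen. *CHM* was at 38.2 and 43.3 CPM in FLO-1LM and 34.2 and 34.3 in parental cells, and *CHML* at 46.0 and 42.1 against 39.2 and 33.3. Both FLO-1LM libraries were above both parental libraries in each gene, but the log2 fold changes of 0.25 and 0.28 had edgeR adjusted p of 0.34 and 0.28.

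Of 16 other RAB genes of the secretory routes, 12 were tested and none was called, with log2 fold changes from -0.25 to 1.68. *RAB10* and *RAB11B*, which act in basolateral and recycling traffic and were the most abundant per kb, were at 0.05 (SE 0.071) and 0.07 (SE 0.090). *RAB3B*, picked out after its value was seen, had the smallest adjusted p of the list. RAB3 proteins control regulated exocytosis and share effectors with RAB27. *RAB3B* was at 14.7 and 17.1 CPM in FLO-1LM and 12.0 and 9.86 in parental cells, with no overlap. Its log2 fold change of 0.54 (SE 0.17) had an edgeR adjusted p of 0.14. *RAB3A* had the largest log2 fold change of the list, 1.68 (SE 0.66, adjusted p 0.28 in edgeR), on only 18 and 43 counts against 10 and 6.

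No gene of the tethering and fusion machinery or of vesicle cargo was called. All 9 exocyst genes, whose products tether secretory vesicles, were tested and none was called, and the log2 fold changes were between 0.00 and 0.18. *EXOC2* and *EXOC7* were the most abundant per kb. Of the 17 genes of membrane fusion, 16 were tested and none was called. The most abundant, *VAMP3* and *VAMP7*, which are vesicle SNAREs, had log2 fold changes of 0.06 (SE 0.077) and 0.14 (SE 0.081). Of the 14 genes of extracellular vesicle cargo and sorting, 12 were tested and none was called, with log2 fold changes between -0.19 and 0.03. *CD63*, a tetraspanin of multivesicular endosomes and exosomes, was at 233 and 230 CPM in FLO-1LM and 230 and 243 in parental cells. *CHMP4B*, the ESCRT subunit that cuts endosomal buds, had a log2 fold change of 0.03 (SE 0.084).

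Apart from *RPH3AL*, the synaptotagmins and other tandem C2 proteins listed share the C2 domains of the SYTL proteins without belonging to their family. Of the 23 genes, 14 were tested. *SYT12*, a synaptotagmin that lacks the calcium-binding residues of its relatives, was at 20.4 and 21.0 CPM in FLO-1LM and 31.6 and 30.2 CPM in parental cells. Both FLO-1LM libraries were low, with a narrow spread in each line. The log2 fold change was -0.58 (SE 0.12, edgeR adjusted p 0.013), opposite in sign to that of *SYTL2*. Without either of the parental replicates the fold change was -0.55 and -0.61 but the adjusted p was 0.34 and 0.15. The extended synaptotagmins *ESYT1* and *ESYT2*, which join the endoplasmic reticulum to the plasma membrane and were the most abundant of the list, were at 0.00 (SE 0.072) and -0.17 (SE 0.075, adjusted p 0.34).

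**Figure D4:**
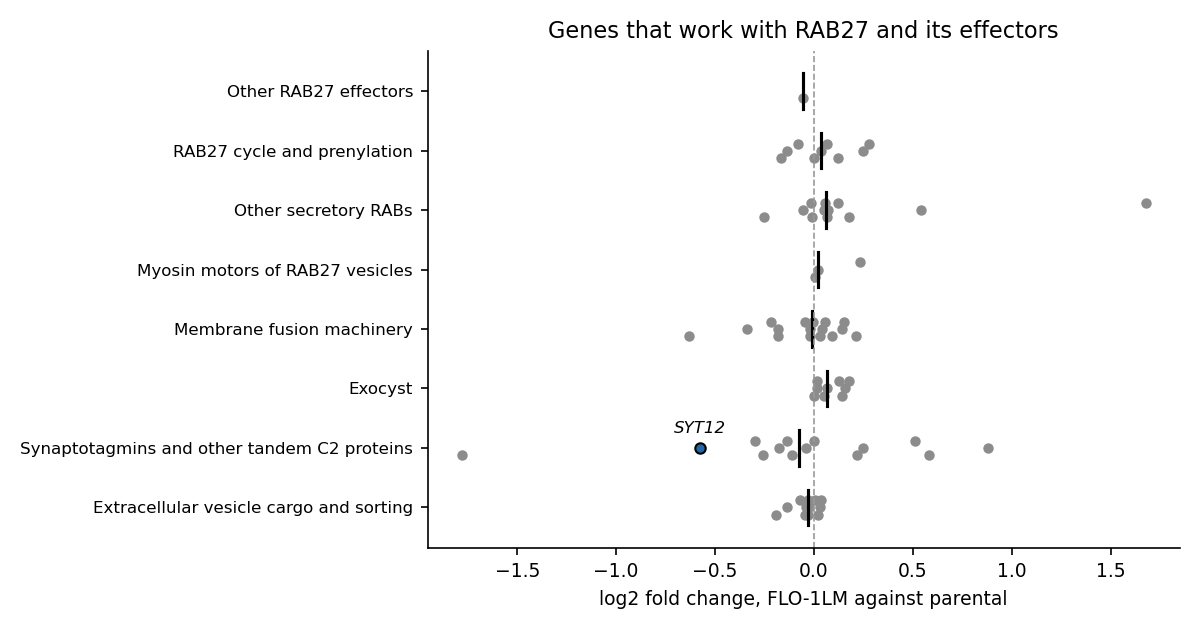
Log2 fold change, FLO-1LM against parental, of each tested gene in the 8 pathway lists (1 point per gene, spread vertically for legibility), with a black bar at the median of each list and a dashed line at 0. The 1 gene past the adjusted p threshold, *SYT12*, is outlined at -0.58.

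Position was not used to choose the genes, so the surroundings of *SYTL2* were examined. Within 1000 kb of its start 12 genes were tested, 9 of them protein-coding, and none was called. The log2 fold changes of the 9 coding neighbours had a median of 0.16 and ran from -0.11 to 0.38. All were below the 0.85 of *SYTL2*, which is description only, since *SYTL2* was chosen for its difference. The nearest tested coding gene upstream is *PICALM* (chr11:85668218-85780924), a clathrin assembly gene, at 216 and 230 CPM in FLO-1LM and 212 and 187 in parental cells. Its log2 fold change was 0.16 (SE 0.080, edgeR adjusted p 0.42). The nearest downstream is *CREBZF* (chr11:85368786-85393951), at 127 and 114 CPM against 115 and 106, with a log2 fold change of 0.12 (SE 0.084, adjusted p 0.64). No annotated exon of another gene overlaps those of *SYTL2*. None of the genes tested within 1000 kb of the other 6 members was called either.

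**Figure D5:**
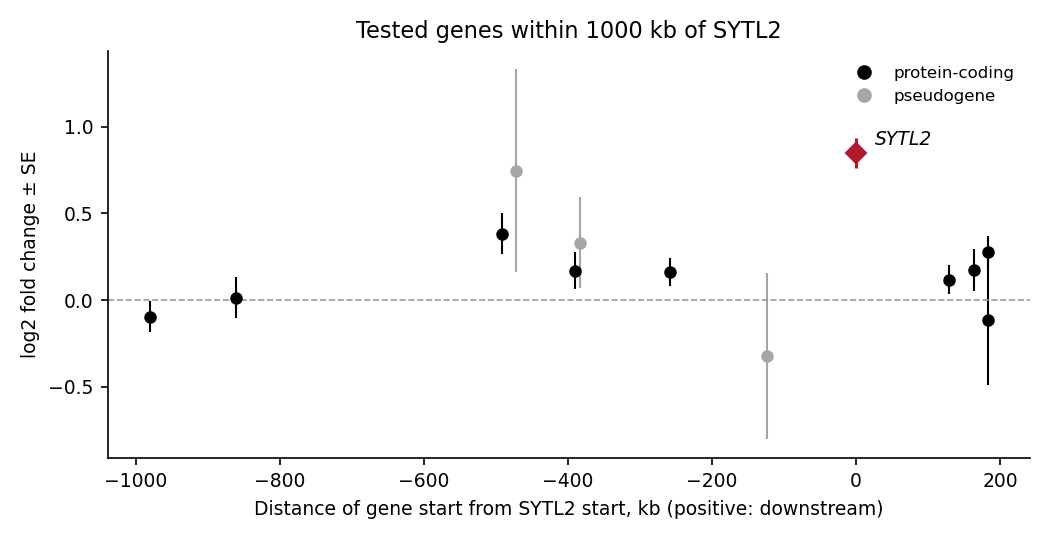
Log2 fold change ± SE of the 12 tested genes within 1000 kb of *SYTL2* against the distance of their start from that of *SYTL2* in kb, with negative distances upstream. Black points are protein-coding genes, gray points pseudogenes, and the diamond is *SYTL2* at 0.85.

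The genes whose pattern over the 4 libraries was most like that of *SYTL2* were found among 12047 genes with a mean count of at least 100, by the root mean square difference of their centred log2 CPM. They were *RPS29P16* at 0.037, *RPL17P6* at 0.050, *GLDC* at 0.052, *MT-ATP8* at 0.053 and ENSG00000163067 at 0.064. *GLDC* encodes a subunit of the glycine cleavage system and *MT-ATP8* a mitochondrially encoded subunit of ATP synthase, and *RPS29P16* and *RPL17P6* are processed pseudogenes of ribosomal protein genes, whose reads may come from their parent genes. No pathway list gene was among them. Of the other members only *SYTL3* and *RAB27A* reached that mean count, and both had log2 fold changes below 0. That no other member was found therefore follows from the count minimum and from the fold changes already given. With 4 libraries from 2 lines, likeness of pattern is little more than a similar log2 fold change, here 0.73 to 0.93.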

How the data were processed

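RNAseq was performed on 4 libraries, 2 of FLO-1LM and 2 of FLO-1 parental cells, assigned to lines by the sample labels. Total RNA was made into directional libraries. The authors used bcl2fastq 2.17 at the base calling stage and trimmed adapters with Trimmomatic 0.30 (versions in the submitters' processing notes). They mapped reads to GRCh37 and deposited raw read counts per Ensembl gene, not normalized. The aligner, the counting program and whether counting used strand are not given in the sources used here.

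From these counts, genes were filtered with edgeR 4.0.16 (filterByExpr, minimum count 10, minimum total 15), scaled by TMM and compared in R 4.3.3 by the quasi-likelihood test (estimateDisp, glmQLFit, glmQLFTest). Benjamini-Hochberg adjustment was over the 17143 genes tested, and an adjusted p below 0.05 was a call. SE is the absolute log2 fold change over the square root of F, and intervals use the fit's t quantile. CPM are TMM scaled. Exon lengths, positions and transcripts came from GENCODE 44 mapped to GRCh37, a later annotation than the one counted on, which holds 55665 of the genes. Coding sequences of the main transcripts were aligned globally with Biopython 1.88. Members and lists were chosen with earlier results of these data known. The genes named were all members, list genes past the threshold, the 2 most abundant per kb in each list, the 5 genes most like *SYTL2*, its nearest coding neighbours and genes sharing exons with a member. Others fall outside this rule, and only some of them are marked as picked after their values were seen. *STX11*, *RAB3A* and the untested RAB27 effectors carry no such mark. One gene that this rule names is not reported here.

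Alternatives were DESeq2 1.42.0, limma 3.58.1 voom with and without TMM factors (the study used voom), RLE factors, library totals, other filters, mitochondrial genes left out, each library left out, and other lengths, windows and count minimums. Scripts were tested on simulated data. Total counts per library were 19060310 to 25920336, and the common biological coefficient of variation was 0.090. SE ranged from 0.087 for *SYTL2* to 0.75 for *SYTL4*.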

Additional observations from a re-analysis of the deposited data

How the results depend on the processing

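*SYTL2* was past the threshold in edgeR, DESeq2 and limma voom and in every alternative of scaling, filter and left-out library, with a largest adjusted p of 0.0010. The count of all genes past the threshold, 382, rose to 577 without a low-count filter and ran from 97 to 1095 with a library left out. The lowest counts came without a parental library and the highest without a FLO-1LM library, where the lone library is assumed to vary like the other pair. With a library left out, the members past the threshold numbered 1 to 2 and the pathway list genes 0 to 5. *RAB27A* was called lower without FLO-1LM replicate 1 (-0.67) and *SYTL3* without FLO-1LM replicate 2 (-0.80). In both of these fits many more of all genes were called than in the main fit. *SYT12* lost its call without either parental library. The cause was not tested. With the longest transcript as length, *SYTL2* was at 13.1 CPM per kb in FLO-1LM and 7.30 in parental cells. Its mean share of the SYTL level stayed within the spread between libraries, and those of *SYTL1* and *SYTL3* did not. Calls were 69 higher and 313 lower with TMM factors, 52 and 362 with library totals only, and 51 and 355 in limma voom without TMM factors. With *SYTL5* under 3 counts and *SYTL4* and *RAB27B* under 40 counts in every library, only large differences could have been called in them. No paired analysis was possible because replicate numbers follow accession order and do not pair the libraries.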
